A study of Mus musculus with 14 samples.

Results

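The unfolded protein response genes described here were chosen by name, with earlier results of these data known. They are 10 rows of the deposited count table: Xbp1, Hspa5, Hsp90b1, Atf4, Ddit3, Atf6, Ern1, Dnajb9, Sdf2l1 and Herpud1. All 10 of them were found among the 24833 genes of the table, and all 10 passed the filter on low counts that kept 15466 genes for testing. The RNA came from 14 libraries of SLAM cells, the LSK/Flk2-/CD48-/CD150+ cells of mouse bone marrow in which hematopoietic stem cells are enriched. The C57BL/6 mice carried no stated transgene or deletion, and the labels state neither their age nor their sex. Interleukin-1β (IL-1β), an inflammatory cytokine, was given into the peritoneum at 0.5 µg per mouse each day, and control mice received phosphate-buffered saline (PBS) in the same way. There were 3 PBS and 3 IL-1β libraries after 1 day, and 4 PBS and 4 IL-1β libraries after 20 days, each from sorted cells pooled over 3 to 5 mice.

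Proteins that are secreted or sit in membranes fold in the endoplasmic reticulum (ER), where the chaperone BiP, the product of Hspa5, binds unfolded chains. When unfolded protein accumulates, the sensors IRE1 (gene Ern1), ATF6 and PERK (gene Eif2ak3) switch on: IRE1 cuts a short intron out of Xbp1 mRNA, ATF6 is released from the membrane by proteases, and PERK phosphorylates eIF2α, which slows translation in general while favouring that of ATF4. The resulting transcription factors raise chaperones, degradation factors and amino acid metabolism genes, and hematopoietic stem cells are known for a low rate of protein synthesis and a sensitivity to misfolded protein.

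The sequences shown are the stretch of Xbp1 mRNA that IRE1 cuts, and promoter sequences of members with letters that match elements of ATF6, XBP1 or ATF4. The Xbp1 stretch, from the GENCODE transcript, lies in exon 4 of 5 of the transcript Xbp1-201, at chr11:5524282-5524307 on the plus strand of GRCm38 for the 26 bases that IRE1 removes, which are in capitals. A gene count adds the cut and uncut forms of Xbp1 together, so it says nothing of IRE1 activity.
Xbp1: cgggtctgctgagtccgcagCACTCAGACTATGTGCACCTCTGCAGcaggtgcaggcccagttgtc
The next sequences are RefSeq windows of GRCm38.p6 that hold the ER stress response element ERSE (CCAAT, then any 9 bases, then CCACG), which ATF6 and XBP1 bind together with NF-Y, or its relative ERSE-II (ATTGG, any 1 base, then CCACG), with the matched letters in capitals on whichever strand they lie. In Herpud1 the first run of capitals is instead a match to CARE, the ATF4 element described next. For Hspa5 it is the 30 bases at chr2:34772019-34772048 (plus strand), for Hsp90b1 the 185 bases at chr10:86705510-86705694 (read on the minus strand), and for Herpud1 the 250 bases at chr8:94386179-94386428 (plus strand).
Hspa5: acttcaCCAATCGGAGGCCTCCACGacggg
Hsp90b1: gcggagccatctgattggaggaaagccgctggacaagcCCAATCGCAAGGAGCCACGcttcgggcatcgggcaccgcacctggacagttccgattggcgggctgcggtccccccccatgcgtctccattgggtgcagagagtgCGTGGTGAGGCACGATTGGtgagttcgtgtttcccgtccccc
Herpud1: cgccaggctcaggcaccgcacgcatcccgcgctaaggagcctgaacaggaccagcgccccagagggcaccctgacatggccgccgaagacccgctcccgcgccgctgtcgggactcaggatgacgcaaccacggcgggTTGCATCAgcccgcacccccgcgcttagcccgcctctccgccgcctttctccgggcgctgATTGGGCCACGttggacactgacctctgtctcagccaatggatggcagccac

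Promoter windows of 300 bases (250 before and 50 after the RefSeq start) were found for 9 of the 10 members, all but Atf6, and both strands were searched. ERSE matched in 2 of these 9 windows, against 39 of all 32851 windows (0.119%). In Hspa5 the match spans bases -65 to -47 from the RefSeq start. In the GENCODE annotation, where the Hspa5 gene starts at chr2:34771970, the same match lies inside the gene. Hsp90b1 holds 2 matches, at -212 to -194 and, on the opposite strand, at -107 to -89. The ERSE-II match of Herpud1 lies at -52 to -42, and 12 of all windows (0.0365%) hold that motif. Herpud1 also has the only member match to CARE (TGATGNAA), the element ATF4 binds with C/EBP proteins, which 1304 of all windows (3.97%) hold; it lies on the opposite strand at -112 to -105. The core of the XBP1 element UPRE (TGACGTGG) is in 222 of all windows (0.676%) and in 0 of these 9. No motif searched overlaps another of them in these windows, and each match is a run of letters, not a measured binding site.

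Totals ran from 21654896 to 29441947 counts per library, so 3 counts amount to 0.102 to 0.139 CPM (counts scaled to the same library total), and the lowest count of any member in any library was 434, for Ddit3. The library titles form 4 naming sets whose meaning is not stated: "10k" (replicate 3 of each 1-day group), "E060216" (replicates 1 and 2 at 1 day), "E061316" (replicates 1 and 2 at 20 days) and an untagged set (replicates 3 and 4 at 20 days). Within each set, IL-1β and PBS libraries are equal in number. Summed over 18 immediate early and heat shock genes such as Fos, Jun and Egr1, the 10k libraries reached 13450 and 18299 CPM, while the other 1-day libraries lay between 5089 and 7487. The sort marker Slamf1, which encodes CD150, was at 40.4 to 117 CPM over the 14 libraries. The gate-negative list summed to 451 to 582 CPM in the 20-day IL-1β libraries and 250.2 to 375 in 20-day PBS. Most of that sum was Ptprc, the CD45 gene that stem cells also express (324 to 382 and 176 to 320 CPM), while Flt3, which encodes Flk2, was at 77.4 to 145 and 41.1 to 61.9 CPM. In 1 library, replicate 3 of 20-day IL-1β, 13 neutrophil genes summed to 2647 CPM, led by Ngp and Mpo, against 97.8 to 194 CPM in the other libraries. The 14 listed plasma and B cell genes that the table holds, which mark the cells best known for a strong unfolded protein response, summed to 58.2 to 82.2 CPM, mostly Cd79b. Their sum was 71.4 to 82.2 CPM in 20-day IL-1β and 58.2 to 67.2 in 20-day PBS. Of the plasma cell genes, Jchain and Mzb1 did not exceed 1.16 and 0.223 CPM in any library, Sdc1 was at 9.35 to 20.0 CPM over the 14 libraries, and Prdm1 was at 2.45 to 4.73 CPM in 20-day IL-1β against 0.0448 to 1.52 in 20-day PBS. Other marker lists also differed at 20 days, that of macrophages with a narrow overlap. The 10 erythroid genes summed to 173 to 191 CPM in IL-1β and 47.8 to 73.3 in PBS, mostly Hbb-bt, while Hba-a1 did not exceed 2.67 CPM in any library. The 7 megakaryocyte and platelet genes, led by Itga2b, summed to 879 to 1521 CPM and 653 to 785 CPM. The 6 T and NK cell genes summed to 107 to 122 CPM and 60.3 to 83.7 CPM, mostly Nkg7, with Trac at no more than 0.6 CPM. The 5 mast cell and basophil genes summed to 8.59 to 27.6 CPM and 4.46 to 7.91 CPM, and the 11 macrophage genes to 29.9 to 40.6 CPM and 40.5 to 78.8 CPM. At 1 day the erythroid sum was 64.6 to 88.1 CPM in IL-1β and 43.1 to 62.9 in PBS, and the macrophage sum 42.1 to 51.7 and 64.2 to 72.7. The part of these other cell types in the results was not tested. In bulk RNA of sorted cells, fewer cells of a type and less RNA per cell cannot be told apart.

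After 20 days of IL-1β, Xbp1, Ern1, Hspa5 and Atf4 were lower than in PBS, by 1.25-fold to 1.57-fold, and no member was higher. Only Ern1 was called after 1 day, where it was lower by 1.97-fold. Thus 1 of 10 members was called at 1 day and 4 of 10 at 20 days, each of them lower. Of all 15466 genes, 4.35% were called at 1 day (1.83% lower) and 7.46% at 20 days (3.52% lower). A call is a Benjamini-Hochberg adjusted p under 0.05 over all tested genes in edgeR's quasi-likelihood test, in a fit that compares within naming sets, and every adjusted p here comes from that test unless another is named. The groups did not overlap for 3 of 10 members at 1 day (Ern1, Xbp1 and Herpud1) and for 3 of 10 at 20 days (Ern1, Xbp1 and Hsp90b1), beside 17.7% and 10.4% of all genes. In a fit without the naming set term only the 20-day call of Xbp1 held (adjusted p = 0.00337), while Ern1 (0.0508 at 1 day and 0.16 at 20 days), Hspa5 (0.204) and Atf4 (0.711) missed the threshold. With only the 20-day libraries in the fit, Hspa5 (0.0614) and Atf4 (0.0554) missed it, and without the filter on low counts the 20-day Ern1 did (0.0504). The log2 fold changes of the 10 members had a median of -0.28 at both 1 day and 20 days, with 8 of 10 below 0 each time, beside medians over all genes of -0.015 and -0.00034. Values are CPM scaled by TMM factors, and fold changes are log2 of IL-1β over PBS with their standard error (SE).

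**Figure D1:**
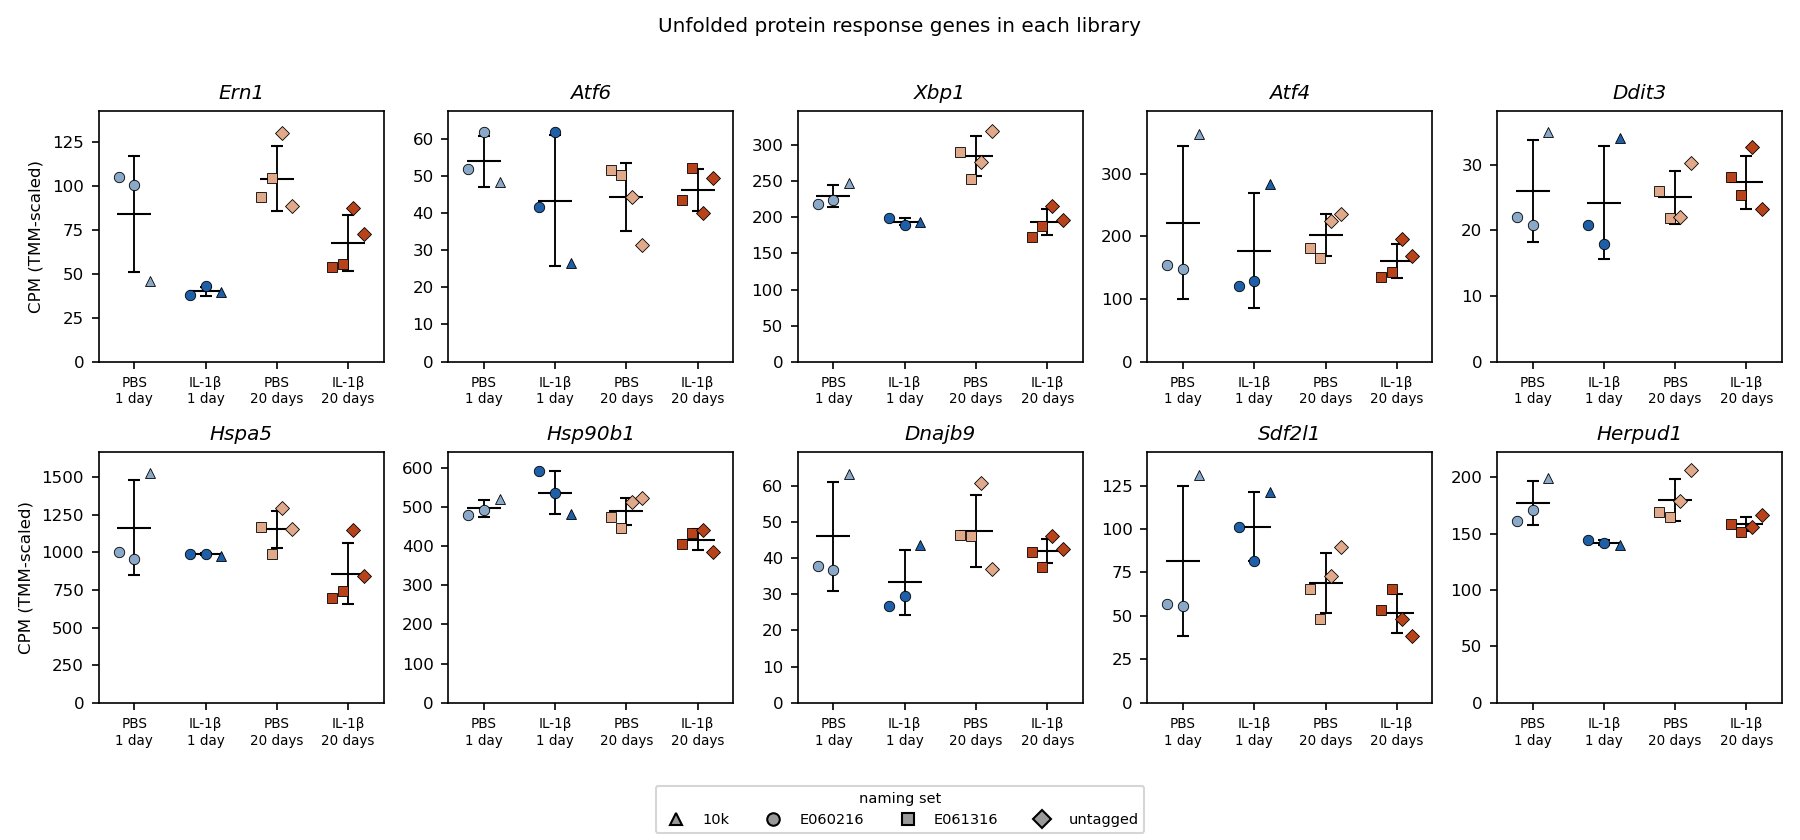
CPM of the 10 unfolded protein response genes (vertical axes, each starting at 0) in each of the 14 libraries, by treatment group, with bars for the group mean ± SD and marker shapes for the naming sets. The 4 IL-1β libraries at 20 days lie below the 4 PBS libraries for Xbp1 and Ern1, and the 10k libraries (triangles) stand above the other 1-day libraries for Atf4 and Ddit3.

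Levels were compared between genes per kilobase of exon, with the exons of all annotated transcripts of a gene merged. That length can exceed a single transcript: it was 3248 bases for Xbp1, whose transcript Xbp1-201 has 2129. The order of the members thus depends in part on the annotation. By this measure Hspa5 was the highest member with 245 ± 51.2 CPM per kb (SD, n = 14 libraries of all 4 groups). Its lowest library (165) lay above the highest library of every other member, the nearest being Atf4 with 154. Hsp90b1 followed with 119 ± 13.7, then Atf4 with 80.2 ± 28.8, Herpud1 with 70.7 ± 8.42, Xbp1 with 70.0 ± 13.6 and Sdf2l1 with 66.4 ± 25.5. These 4 overlapped across libraries and cannot be ranked among themselves, and Hsp90b1 (95.2 to 147 CPM per kb) overlapped with Atf4, Xbp1 and Sdf2l1 but not with Herpud1 (60.0 to 88.4). Within each of the 14 libraries, however, Hsp90b1 was above Xbp1 and Sdf2l1. Atf4 exceeded Hsp90b1 in replicate 3 of 1-day PBS (154 against 129) and matched it at 120 in replicate 3 of 1-day IL-1β. A lower tier held Dnajb9 with 16.7 ± 3.99, Ddit3 with 15.0 ± 3.19, Ern1 with 9.23 ± 3.63 and Atf6 with 5.07 ± 1.07, where each gene overlapped with the next in order. No library of these lower 4 members, at most 24.9 CPM per kb, reached the lowest value of the upper 6, which was 34.9 for Sdf2l1. Ern1 and Sdf2l1 varied most, with highest over lowest library ratios of 3.42 and 3.39, and Herpud1 varied least, with 1.47.

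**Figure D2:**
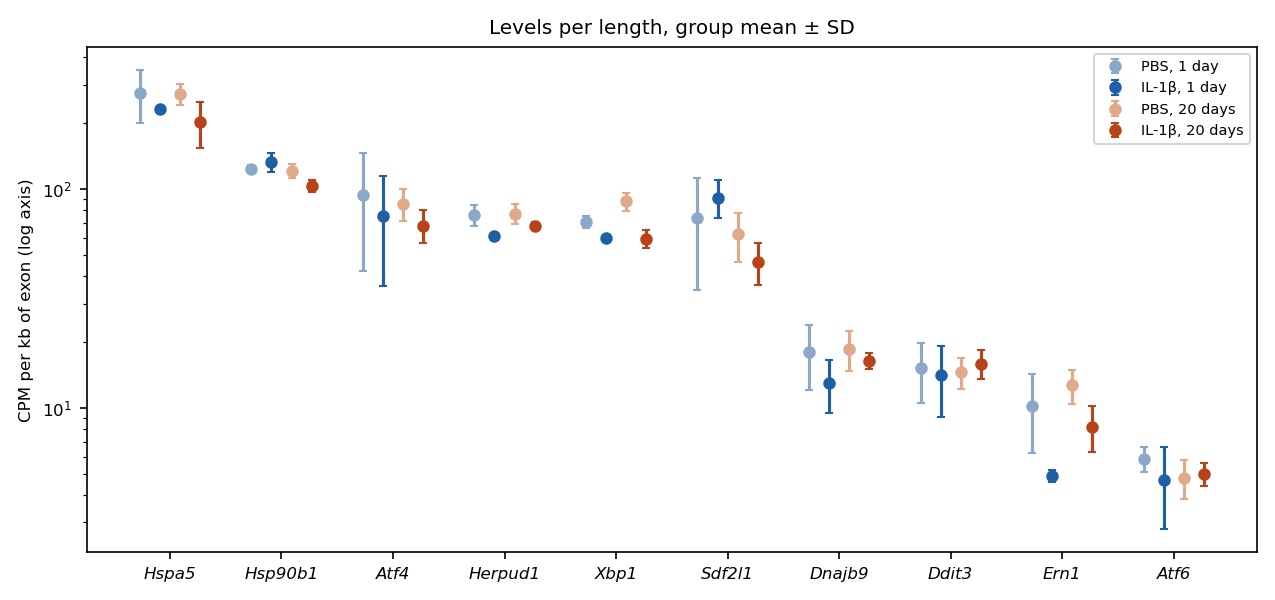
Level of each member per kilobase of exon (CPM per kb, log axis) as the mean ± SD of each group, ordered by the mean over 14 libraries. Hspa5 stands at the top (245 CPM per kb over all libraries) and Atf6 at the bottom (5.07), and the members from Atf4 to Sdf2l1 overlap.

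Ern1 (ENSMUSG00000020715, chr11:106394650-106487852, minus strand) encodes IRE1, the kinase and endoribonuclease that cuts Xbp1 mRNA. At 1 day it was at 104.9, 100.6 and 45.6 CPM in PBS and at 37.9, 42.7 and 39.3 CPM in IL-1β. The groups did not overlap, but the lowest PBS library, from the 10k set, stood close to the IL-1β range while the other PBS libraries were far above it. Ern1 fell at 1 day, with a log2 fold change of -0.98 ± 0.20 (SE) and an adjusted p of 0.013. Within naming sets the log2 difference was -1.35 in E060216 (2 libraries a group) and -0.22 in 10k (1 a group). Without the 10k set, a setting added after the data were seen, it was -1.35 with an adjusted p of 0.00136. The call was lost without any 1 of the 4 E060216 libraries (adjusted p 0.0649 to 0.121).

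After 20 days Ern1 was at 93.5, 104.4, 129.6 and 88.4 CPM in PBS and at 53.6, 55.3, 87.3 and 72.7 CPM in IL-1β. Every IL-1β library was again below every PBS library, though the highest IL-1β value (87.3) came near the lowest PBS value (88.4). Ern1 fell at 20 days with a log2 fold change of -0.65 ± 0.17 and an adjusted p of 0.0339, and the naming sets gave -0.86 (E061316) and -0.43 (untagged). This call was lost without any 1 of 6 libraries, PBS replicates 1, 2 and 3 and IL-1β replicates 1, 2 and 4 (adjusted p 0.0718 to 0.109). The 20-day effect minus the 1-day effect was 0.33 ± 0.27 with an adjusted p of 0.572, so a difference in size between the durations was not shown.

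Xbp1 (ENSMUSG00000020484, chr11:5520659-5525893, plus strand) encodes the transcription factor made from the mRNA that IRE1 cuts, a driver of chaperone and secretory genes. After 20 days it was at 291, 253, 277 and 320.2 CPM in PBS and at 172, 188, 216 and 196 CPM in IL-1β. The groups stood well apart, with the highest IL-1β library (216) clearly below the lowest PBS library (253). Xbp1 fell from 285 ± 28.1 CPM (SD, n = 4) to 193 ± 18.1 (n = 4), a log2 fold change of -0.56 ± 0.079 and an adjusted p of 0.000628. Both naming sets gave similar sizes, -0.59 and -0.53. This was the one member call that held in all 22 other settings, including each of the 14 left-out libraries, with log2 fold changes from -0.61 to -0.53 and a highest adjusted p of 0.00698.

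At 1 day Xbp1 was at 219, 224 and 247 CPM in PBS and at 199, 189 and 194 CPM in IL-1β. These groups did not overlap either, and the change was not called (log2 fold change -0.25 ± 0.092, adjusted p = 0.158). The difference between the durations was -0.32 ± 0.12, with an unadjusted p of 0.0191 and an adjusted p of 0.172. Xbp1 also stood higher in PBS at 20 days than in PBS at 1 day, with no overlap between the groups, which 5.9% of all genes share. That log2 difference was 0.31 ± 0.10 with an adjusted p of 0.999, and duration and naming set cannot be told apart in it.

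Atf6 (ENSMUSG00000026663, chr1:170704674-170867771, minus strand) encodes the membrane-bound sensor whose released part is a transcription factor. It was at 51.9, 61.7 and 48.5 CPM in 1-day PBS and at 41.6, 61.8 and 26.7 CPM in 1-day IL-1β, so the IL-1β libraries spread across and below the PBS range. At 20 days it was at 51.6, 50.1, 44.4 and 31.5 CPM in PBS and at 43.5, 52.1, 39.9 and 49.6 CPM in IL-1β, which overlapped throughout. Neither difference was called (log2 -0.37 ± 0.19, adjusted p = 0.324, and 0.072 ± 0.17, adjusted p = 0.88).

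Atf4 (ENSMUSG00000042406, chr15:80255184-80257541, plus strand) encodes the transcription factor whose translation rises when eIF2α is phosphorylated, so its mRNA is only part of its control. After 20 days it was at 181, 166, 225 and 235 CPM in PBS and at 135, 143, 196 and 168 CPM in IL-1β. The groups overlapped, because the untagged libraries were higher than the E061316 libraries in both. Within each set the IL-1β libraries lay below the PBS libraries, with log2 differences of -0.34 (untagged) and -0.32 (E061316). Atf4 fell in the fit that compares within sets, by 0.33 ± 0.074 on the log2 scale with an adjusted p of 0.0148, and the call was lost without replicate 1 of 20-day IL-1β (adjusted p = 0.0517).

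The 1-day values of Atf4 were 154, 148 and 363 CPM in PBS and 120.3, 128 and 284 CPM in IL-1β. In both groups the 10k library was more than any other 1-day library, and within each set IL-1β was below PBS (-0.36 in 10k, -0.29 in E060216). The log2 fold change was -0.31 ± 0.085 with an adjusted p of 0.0544, just above the threshold. The sum of immediate early and heat shock genes moved with Atf4: it was highest in the same 10k libraries at 1 day, and at 20 days it was 13920 to 15479 CPM in the untagged set against 6507 to 10883 in E061316. Of those 18 genes, 3 were called lower and 0 higher at each duration (16.7%, beside 4.35% and 7.46% of all genes). They were Egr1, Ier2 and Zfp36 at 1 day, and Egr1 with the heat shock genes Hsph1 and Hspa8 at 20 days, and their part in the Atf4 result was not tested.

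Ddit3 (ENSMUSG00000025408, chr10:127290774-127296288, plus strand) encodes CHOP, a factor tied to cell death after long stress. It was at 22.1, 20.9 and 35.0 CPM in 1-day PBS and at 20.7, 17.9 and 34.0 CPM in 1-day IL-1β. At 20 days the values were 25.96, 21.8, 21.99 and 30.2 CPM in PBS and 28.1, 25.3, 32.6 and 23.2 CPM in IL-1β. Both pairs of groups overlapped, and only the 10k libraries stood out. The log2 fold changes of -0.11 ± 0.16 (1 day, adjusted p = 0.773) and 0.13 ± 0.14 (20 days, adjusted p = 0.675) were not called. Ddit3 counts carry a limit, since the library chemistry does not record the strand and the gene overlaps Mars on the opposite strand. The overlap covers only the 3′ end of Ddit3, chr10:127296221-127296288, and Mars as a whole had up to 4985 counts. GENCODE also lists a second Ddit3 gene inside the first on the same strand, at chr10:127290829-127293753.

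Hspa5 (ENSMUSG00000026864, chr2:34771970-34777547, plus strand) encodes BiP, the main ER chaperone and the brake on the sensors. After 20 days it was at 1169.6, 989, 1294 and 1158 CPM in PBS and at 698, 742, 1149 and 839.8 CPM in IL-1β. One IL-1β library, replicate 3, lay inside the PBS range, and the other IL-1β libraries lay below all PBS libraries. Hspa5 fell by 0.44 ± 0.12 on the log2 scale with an adjusted p of 0.0443, and both naming sets had the same sign (-0.58 and -0.32). The call was lost without any 1 of 8 libraries (adjusted p 0.0537 to 0.141), namely replicate 2 of each 1-day group, PBS replicates 1, 2 and 3 and IL-1β replicates 1, 2 and 4 of 20 days. Without replicate 3 of 20-day IL-1β, the library with neutrophil genes, the log2 fold changes of Hspa5, Xbp1, Atf4 and Ern1 were -0.57, -0.60, -0.37 and -0.75 with adjusted p of 0.0147, 0.00166, 0.0183 and 0.0362.

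At 1 day Hspa5 was at 1005, 958 and 1528 CPM in PBS and at 991, 989 and 978 CPM in IL-1β. The IL-1β libraries were nearly alike (SD 6.68 CPM), and the spread in PBS came from the 10k library. The log2 fold change of -0.21 ± 0.14 was not called (adjusted p = 0.5), and without the 10k set it was 0.014.

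Hsp90b1 (ENSMUSG00000020048, chr10:86690209-86705509, minus strand) encodes GRP94, the ER chaperone of the HSP90 family. Its 20-day values were 475, 446, 513 and 522 CPM in PBS and 405, 434, 442 and 384 CPM in IL-1β, which did not overlap. The log2 fold change of -0.23 ± 0.085 was not called (adjusted p = 0.128), though DESeq2, which called 13% of the genes it tested at 20 days, gave it an adjusted p of 0.0436. At 1 day it was at 478, 492 and 521 CPM in PBS and at 593, 534 and 482 CPM in IL-1β, which overlapped, with a log2 fold change of 0.11 ± 0.098 (adjusted p = 0.627). Its 3′ part overlaps 1810014B01Rik on the opposite strand, which had up to 350 counts.

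Dnajb9 (ENSMUSG00000014905, chr12:44205559-44210326, minus strand) encodes ERdj4, a co-chaperone that helps BiP hold IRE1 inactive. At 1 day it was at 37.9, 36.7 and 63.3 CPM in PBS and at 26.7, 29.5 and 43.5 CPM in IL-1β. The highest value of both groups was the 10k library, and IL-1β was lower within each set (-0.54 in 10k, -0.41 in E060216). The fit gave -0.45 ± 0.15 with an adjusted p of 0.107, while DESeq2 called it (adjusted p = 0.0405), as it did 10.2% of the genes it tested at 1 day. At 20 days the values were 46.4, 46.2, 60.9 and 36.9 CPM in PBS and 41.6, 37.6, 46.0 and 42.5 CPM in IL-1β, which overlapped, and the log2 fold change was -0.18 ± 0.13 (adjusted p = 0.475).

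Sdf2l1 (ENSMUSG00000022769, chr16:17130138-17132383, minus strand) encodes a BiP-associated ER protein. At 1 day it was at 57.0, 55.9 and 131 CPM in PBS and at 101.3, 81.4 and 121 CPM in IL-1β. IL-1β was above PBS in the E060216 set (log2 0.69) and slightly below it in the 10k set (-0.11). At 20 days the values were 65.3, 48.0, 73.0 and 89.9 CPM in PBS and 53.6, 65.7, 48.0 and 38.7 CPM in IL-1β, which overlapped, with IL-1β lower in the untagged set (-0.91) and not in E061316 (0.084). The fit gave 0.42 ± 0.23 at 1 day (adjusted p = 0.347) and -0.42 ± 0.20 at 20 days (adjusted p = 0.26), neither of them called. The difference between the durations was the largest of the 10 members, -0.84 ± 0.30, with an unadjusted p of 0.0148 and an adjusted p of 0.154, and DESeq2 called it (adjusted p = 0.0496).

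Herpud1 (ENSMUSG00000031770, chr8:94386438-94395377, plus strand) encodes a membrane protein of ER-associated degradation, which removes misfolded proteins. At 1 day it was at 161.5, 171 and 199 CPM in PBS and at 144, 142 and 140.0 CPM in IL-1β. The groups did not overlap and the IL-1β libraries were tightly spaced (SD 2.20 CPM), yet the log2 fold change of -0.31 ± 0.093 was not called (adjusted p = 0.0714). DESeq2 called it (adjusted p = 0.0105). At 20 days it was at 169, 164, 179 and 206 CPM in PBS and at 159, 152, 156 and 166 CPM in IL-1β, which overlapped narrowly, with a log2 fold change of -0.18 ± 0.080 (adjusted p = 0.217). Its start overlaps the antisense gene Gm15890, which had at most 36 counts.

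**Figure D3:**
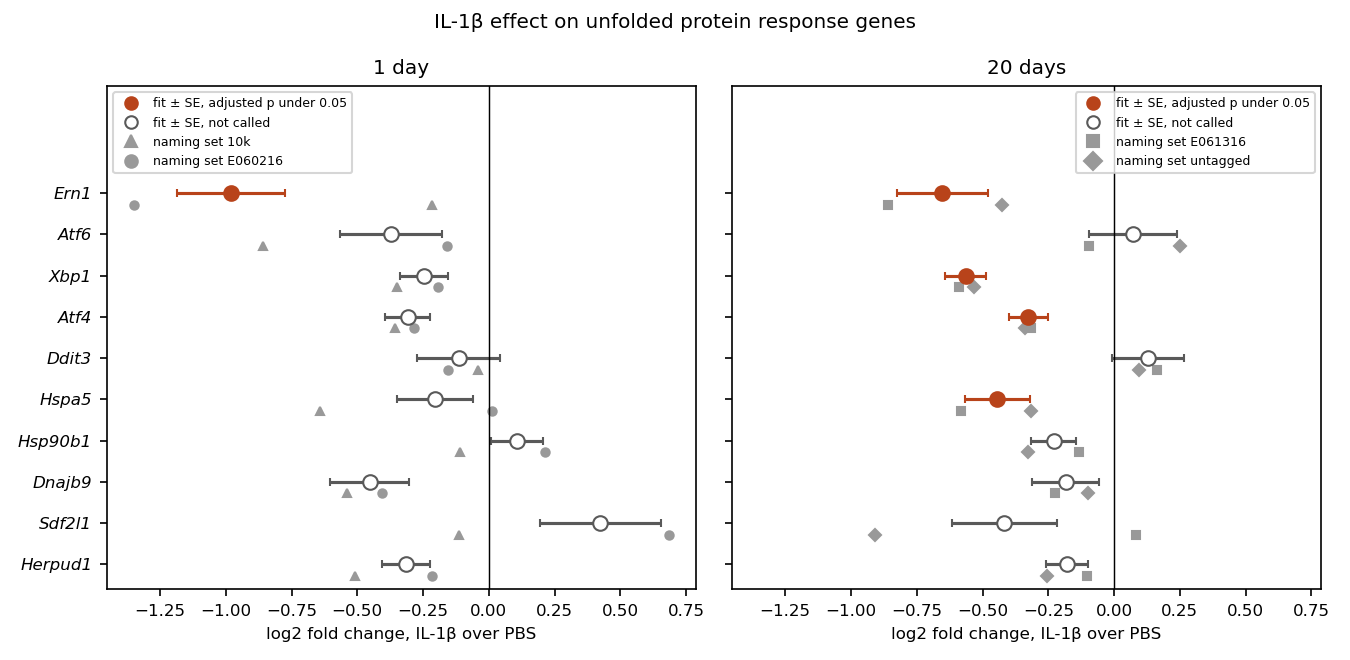
Log2 fold change of IL-1β over PBS for each member at 1 day (left) and 20 days (right), as the fitted value ± SE (filled where called) with the differences within each naming set beneath it. At 20 days the called values run from -0.65 (Ern1) to -0.33 (Atf4), and at 1 day Ern1 (-0.98) is the member called, with its naming sets at -1.35 and -0.22.

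Whether the response differed between 1 and 20 days was tested as the 20-day effect minus the 1-day effect. Of the 10 members 0 were called in this contrast, in which 2.14% of all genes were. An unadjusted p under 0.05 was found for 3 of 10 members (Xbp1, Hsp90b1 and Sdf2l1, each with a more negative effect at 20 days), beside 18.4% of all genes, and DESeq2 called 1 of 10, beside 9.48% of the genes it tested. The differences of Atf4 (-0.017 ± 0.11) and Herpud1 (0.13 ± 0.12) were among the smallest. Between PBS at 20 days and PBS at 1 day 0 of 10 members were called, as were 0% of all genes. Xbp1 was the single member with an unadjusted p under 0.05 there (0.00868), beside 4.37% of all genes, and DESeq2 called 0 members and 0.0648% of the genes it tested.

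Some members varied together between libraries of the same group. After the group means were removed, Pearson's r over the 14 libraries was 0.86 between Atf4 and Ddit3, 0.80 between Atf4 and Dnajb9 and 0.75 between Xbp1 and Hspa5. Atf6 ran opposite to Ddit3 (-0.82) and Atf4 (-0.69), and Ern1 opposite to Sdf2l1 (-0.76). These values are descriptions of 14 points that share library, naming set and depth, and the 10k libraries hold the extremes of several of these genes. Among the 15456 genes outside the members, L3hypdh (r = 0.91), Gm3355 (0.91), Tor1b (0.90) and Wnt6 (0.88) were among those most like Hspa5 by the same measure.

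The proportions between members also varied. The Hsp90b1 to Hspa5 ratio of CPM was 0.406, 0.451, 0.396 and 0.451 in 20-day PBS and 0.58, 0.586, 0.385 and 0.457 in 20-day IL-1β, so it was higher with IL-1β in the E061316 set, while the untagged libraries overlapped. At 1 day it was 0.476, 0.514 and 0.341 in PBS and 0.598, 0.54 and 0.493 in IL-1β, above PBS within each naming set. Sdf2l1 over Hspa5 was 0.0568, 0.0583 and 0.086 in 1-day PBS and 0.102, 0.0823 and 0.124 in 1-day IL-1β, again higher within each set. At 20 days that ratio overlapped between the groups, with 0.0485 to 0.0776 in PBS and 0.0417 to 0.0886 in IL-1β. Ddit3 over Atf4 was 0.143, 0.132, 0.0978 and 0.129 in 20-day PBS and 0.208, 0.177, 0.166 and 0.138 in 20-day IL-1β. Every IL-1β library but replicate 4 exceeded all PBS libraries in that ratio. These ratios were computed after the values of the genes were known and were not tested.

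Around these members, 128 further genes of the same pathway were followed from lists of sensors, chaperones, disulfide formation, ER-associated degradation, translocation and export, ATF4 and CHOP targets, and eIF2α kinases and phosphatases, of which 127 were tested. At 1 day 2 of 127 rose and 3 fell (3.94%), beside 4.35% of all genes. At 20 days 3 rose and 10 fell (10.2%), beside 7.46% of all genes. The median log2 fold change went from 0.048 at 1 day to -0.12 at 20 days, when 89 of the 127 were below 0. Of the 10 genes that fell at 20 days 9 were ATF4 and CHOP targets and the other was Txndc5, while the values below 0 were spread over several lists. Signs leaned the same way without IL-1β: between PBS at 20 days and PBS at 1 day, 84 of the 127 were below 0. The median there was -0.041, and 0 of the 127 were called.

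The ER chaperone list, with 17 genes that include 4 members, had 15 below 0 at 20 days and a median of -0.18. Hspa5 was its only call (5.88%, beside 7.46% of all genes). Hyou1, a large HSP70-like chaperone of the ER, was at 61.7 ± 6.51 CPM in PBS and 47.6 ± 2.13 in IL-1β (log2 -0.37 ± 0.12, adjusted p = 0.0687) and was not called. Of 12 disulfide formation genes 1 was called at 20 days (8.33%, beside 7.46% of all genes). Txndc5, a protein disulfide isomerase, fell from 243 ± 11.1 to 183 ± 15.6 CPM with no overlap (log2 -0.41 ± 0.080, adjusted p = 0.00692). Among 27 tested translocation and export genes 23 were below 0 at 20 days (median -0.13) in the fit over both naming sets. The sets differed, and many of these genes were above 0 in E061316. Sec61b was at 0.19 there and -0.77 in untagged, and Spcs1 at 0.16 and -0.44, while Sec31a went the other way (-0.34 and 0.066). The 2 calls of this list (7.41%, beside 7.46% of all genes) were increases. These were Sec24d, a cargo adaptor of export vesicles, with 56.1 ± 9.66 CPM in PBS and 83.2 ± 10.7 in IL-1β (log2 0.56 ± 0.13, adjusted p = 0.0181), and Sec11c, a signal peptidase subunit (0.28 ± 0.078, adjusted p = 0.0447). The Sec24d call was lost without PBS replicate 2 (adjusted p = 0.0583) or IL-1β replicate 4 (0.0567) of 20 days, and that of Sec11c without any 1 of 13 libraries, all but IL-1β replicate 3 of 1 day (0.0538 to 0.155), or without the naming set term (0.272).

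Of 21 ER-associated degradation genes 0 were called at 20 days, beside 7.46% of all genes. At 1 day 1 rose and 1 fell (9.52%, beside 4.35% of all genes). Vimp, which links the degradation machinery to the ER membrane, fell at 1 day from 68.7 ± 8.73 to 43.9 ± 4.48 CPM without overlap (log2 -0.65 ± 0.13, adjusted p = 0.00964). Edem1, which marks misfolded glycoproteins for removal, rose from 68.3 ± 2.84 to 89.3 ± 11.8 CPM (log2 0.38 ± 0.10, adjusted p = 0.0484). The Vimp call was lost without PBS replicate 1 or IL-1β replicates 1 or 2 of 1 day (adjusted p 0.0523 to 0.0623), and that of Edem1 without any 1 of 9 of the 14 libraries (0.0509 to 0.197). Without the naming set term Vimp (0.133) and Edem1 (0.195) were not called. The sensor list, 13 tested genes with Ern1 and Atf6 among them, had Ern1 as its only call at either duration. That is 7.69%, beside 4.35% of all genes at 1 day and 7.46% at 20 days. Eif2ak3, encoding PERK, was at -0.0099 ± 0.18 at 1 day and -0.034 ± 0.15 at 20 days (adjusted p = 0.987 and 0.945). Of 14 eIF2α kinases, phosphatases and translation factors, 13 were below 0 at 20 days (median -0.13) and 0 were called.

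Of 33 targets of ATF4 and CHOP, 1 rose and 2 fell at 1 day (9.09%, beside 4.35% of all genes), with a median log2 fold change of 0.11. At 20 days 1 rose and 9 fell (30.3%, beside 7.46% of all genes), with a median of -0.27. The medians over all genes were -0.0145 and -0.00034. Trib3, a pseudokinase that curbs ATF4 and CHOP, fell at both durations, from 29.2 ± 8.72 to 11.3 ± 1.48 CPM at 1 day (log2 -1.37 ± 0.23, adjusted p = 0.00336) and from 35.4 ± 2.83 to 21.05 ± 5.62 CPM at 20 days (-0.77 ± 0.19, adjusted p = 0.0248), with no overlap at either. Ppp1r15a, the stress-induced subunit that brings a phosphatase to eIF2α, fell at 1 day (-0.90 ± 0.16, adjusted p = 0.00556), with 374 to 1130 CPM in PBS and 198 to 666 CPM in IL-1β, which overlapped between naming sets. That call was lost without the naming set term (adjusted p = 0.517) and without replicate 1 of 1-day IL-1β (0.0525).

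The 9 listed genes that fell at 20 days were the transporters Slc7a5 and Slc7a1, the serine pathway enzymes Phgdh and Shmt2, Asns (asparagine synthetase), the tRNA synthetases Wars, Eprs and Mars, and Trib3. Related enzymes of the same list were not called, such as Psat1 (log2 -0.31, adjusted p = 0.143) and Aars (-0.27, adjusted p = 0.0634). Slc7a5, a transporter of large neutral amino acids, was at 120.4 ± 8.85 CPM in PBS and 81.7 ± 9.55 in IL-1β (log2 -0.56 ± 0.10, adjusted p = 0.00344). Slc7a1, a transporter of cationic amino acids, was at 43.8 ± 9.15 and 24.6 ± 3.93 CPM (-0.81 ± 0.15, adjusted p = 0.00414). Neither pair of groups overlapped. Pck2, the mitochondrial form of PEPCK, was the list's increase, from 195 ± 8.85 to 257 ± 10.1 CPM without overlap (0.40 ± 0.071, adjusted p = 0.00342). The 20-day calls of Slc7a5, Slc7a1, Pck2 and Txndc5 held without each of the 14 libraries in turn.

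In this list 8 of 33 genes (24.2%) had a 20-day effect below the 1-day effect in the test of the difference, beside 0.989% of all genes in that direction: Slc7a5, Cars, Shmt2, Asns, Psat1, Phgdh, Aars and Mars. Cars, the cysteine tRNA synthetase, was at 50.3 ± 1.68 CPM in PBS and 71.3 ± 3.26 in IL-1β at 1 day, where it rose (log2 0.51 ± 0.12, adjusted p = 0.0263), and at 57.0 ± 6.05 and 47.0 ± 5.16 CPM at 20 days, where it was not called (-0.28 ± 0.10, adjusted p = 0.123). Its 1-day call was lost without any 1 of the 6 libraries of that duration (adjusted p 0.0614 to 0.119). These 8 genes had positive fitted values at 1 day and negative ones at 20 days. Within naming sets, their 1-day log2 differences ran from 0.27 (Phgdh) to 0.66 (Psat1) in E060216. In 10k, with 1 library a group, Cars was at 0.48 and the others at -0.11 (Mars) to 0.099 (Psat1). At 20 days each was below 0 in both sets. None of the 8 differences was called in a fit without the naming set term. Atf4 itself had nearly the same fold change at both durations (-0.31 and -0.33).

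**Figure D4:**
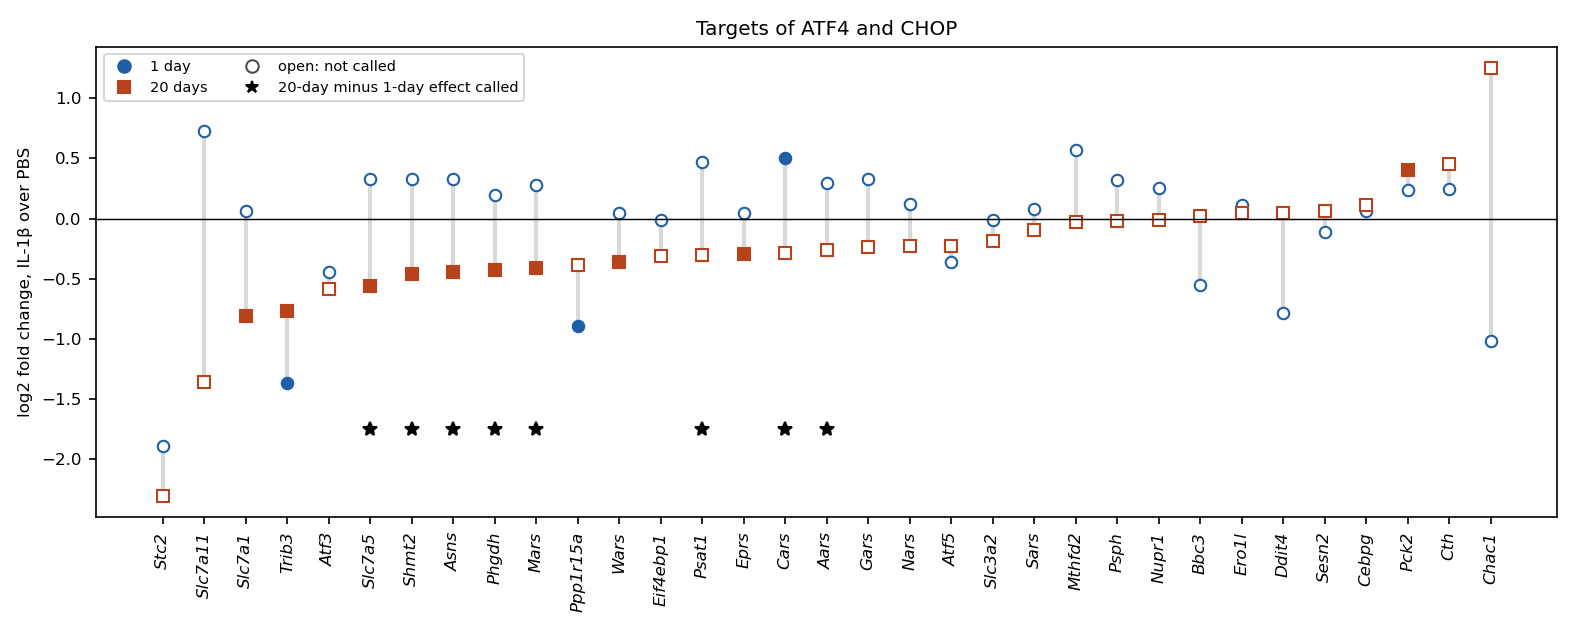
Log2 fold change of IL-1β over PBS at 1 day (circles) and 20 days (squares) for the 33 tested targets of ATF4 and CHOP, filled where called and ordered by the 20-day value, with stars under the 8 genes whose effects differed between durations. Those starred genes have circles above 0 and squares below 0, while Trib3 is below 0 at both.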

How the data were processed

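Per the labels' protocols, RNA of sorted SLAM cells was amplified with SMARTer chemistry, made into Nextera XT libraries and read from a single end, without recording the strand. The submitters' processing notes list GRCm38.p4 and, without roles, DESeq2 1.12.3, Cuffdiff, Cufflinks 2.0.2, HTSeq 0.6.1, STAR 2.4.2a and Trimmomatic 0.32. Which annotation and strand setting the counting used is not given in the sources used here. Raw counts per gene symbol, deposited by the authors in 1 table, were used unchanged.

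Counts were tested with edgeR 4.0.16 (R 4.3.3): TMM factors, filterByExpr with a minimum count of 10, and robust two-sided quasi-likelihood tests. The code was run on simulated counts with the same spread for every gene and changes at 1 day only. They had no naming set effect, so that run cannot judge the fit where the sets differ. All 14 libraries entered 1 fit with a naming set term and an IL-1β effect per duration (8 residual degrees of freedom, biological coefficient of variation 0.198). For PBS at 20 days against 1 day, the fit had the 4 group means only (10 residual degrees of freedom). The SE is the absolute log2 fold change over the square root of F, and is approximate. Benjamini-Hochberg adjustment covered all 15466 genes, with a threshold of 0.05. DESeq2 1.42.0 was an alternative. Libraries of a group differed by more than sampling noise in all 18 pairs (chi-square of 10.7 to 74.4 per degree of freedom). Reads carry no molecular identifiers, so counts are not independent molecules.

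Gene positions and exon lengths are from GENCODE on GRCm38, matched by symbol, and promoter windows are RefSeq's. All members were named, and from each further list up to 3 called genes with the smallest p per IL-1β comparison, or its most significant gene if it had no call, although not every such gene is described. Phgdh, Asns, Wars, Eprs, Mars, Psat1, Aars and Eif2ak3 fall outside that rule and were picked with their values known. The members and lists were chosen with earlier results of these data known. Of the genes that the naming rule and the marker lists cover, some are not reported here.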

Additional observations from a re-analysis of the deposited data

Results flagged for a closer look

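In 3 targets of ATF4 among the genes named by rule, the IL-1β effect differed between the durations by the test of the difference itself, each with a lower log2 effect at 20 days than at 1 day. The 20-day effect minus the 1-day effect was -0.89 ± 0.15 for Slc7a5 (adjusted p = 0.0151), -0.79 ± 0.16 for Cars (adjusted p = 0.0281) and -0.78 ± 0.17 for Shmt2 (adjusted p = 0.0333). The calls were lost without any 1 of 2 libraries for Slc7a5 (replicate 2 of either 1-day group, adjusted p 0.0542 to 0.0699), of 4 for Cars (replicates 1 and 2 of both 1-day groups, 0.0649 to 0.0879) and of 8 for Shmt2 (those 4, replicate 3 of 20-day PBS and replicates 1, 3 and 4 of 20-day IL-1β, 0.055 to 0.104). At 1 day the log2 difference of Slc7a5 was 0.52 in E060216 and -0.059 in 10k, and at 20 days it was -0.52 and -0.61 in the 2 sets. No member had a library standing apart by Dixon's test in the 20 groups of 4 libraries.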

How the results depend on the processing

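Of 850 member values recomputed under other settings, 774 kept their direction and their side of the threshold, 29 lost a call, 16 gained one and 31 changed sign, none of the last being called. Members called at 1 day (1) became 2 with DESeq2's size factors, 3 with upper-quartile factors, 4 with DESeq2, 0 without the naming set term, 4 with only the libraries compared, and 0 to 4 with libraries left out in turn. At 20 days (4) they became 1 without the naming set term, 2 with only the libraries compared and 1 to 5 with libraries left out, and in the difference between durations (0) DESeq2 called 1. The wider pathway genes called at 1 day (5) became 11 with DESeq2, 2 without the naming set term, 8 without the 10k set (chosen after seeing the data) and 1 to 9 with libraries left out. At 20 days (13) they became 26, 6 and 7 to 16 under DESeq2, no naming set term and left-out libraries, and in the difference (8) 18, 0 and 0 to 14. Over all genes, calls at 1 day (672) became 1398 with DESeq2, 290 without the naming set term, 1200 with only the libraries compared and 228 to 1244 with libraries left out; upper-quartile factors gave 344 higher and 399 lower in place of 389 and 283. At 20 days (1154) these were 1809, 525, 750 and 648 to 1156, in the difference (331) 1182, 23 and 34 to 604, and between the PBS groups (0) DESeq2 called 10. The cause was not tested.

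The replicate numbers shared by the groups were not taken to pair libraries, since no label ties a number to a shared source and not every pair of same-numbered libraries deviated together. Deviations of same-numbered libraries correlated at -0.030, 0.12 and 0.18 (1 day) and 0.018, 0.27, 0.11 and 0.063 (20 days), with 4 of 7 highest for their own number. With the replicate block in place of the naming set, members called at 20 days were 1 (Xbp1), with adjusted p of 0.0759 for Hspa5, 0.0558 for Atf4 and 0.0648 for Ern1, and wider pathway genes 7, with 0 in the difference, and all genes called were 383, 672 and 23.

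Sign changes were as follows. At 1 day Hspa5 ran from -0.29 to 0.015 with libraries left out and was 0.014 without the 10k set. At 20 days Atf6 ran from -0.051 to 0.16. In the difference Atf4 was 0.012 with upper-quartile factors, 0.0062 without the filter, and -0.063 to 0.014 with libraries left out. Between the PBS groups, leaving libraries out gave -0.14 to 0.25 for Hspa5, -0.066 to 0.028 for Hsp90b1, -0.36 to 0.43 for Atf4, -0.19 to 0.24 for Ddit3, -0.0904 to 0.36 for Dnajb9, -0.45 to 0.31 for Sdf2l1 and -0.065 to 0.13 for Herpud1. Without the 10k set these were 0.25 for Hspa5, 0.028 for Hsp90b1, 0.43 for Atf4, 0.24 for Ddit3 and 0.31 for Sdf2l1, and Hspa5 was 0.010 with upper-quartile factors.

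Each library pools 3 to 5 mice, so spread between single mice is not measured. Gene counts do not show Xbp1 splicing, eIF2α phosphorylation, ATF6 cleavage or protein. Precision is limited by groups of 3 and 4 libraries and 8 residual degrees of freedom, and every member had at least 434 counts in every library.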
